A study of Mus musculus with 14 samples.

Results

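The genes described here are 9 genes that mark microglia, the resident macrophages of the brain, or encode the recognition molecule of the classical complement pathway. They are Cx3cr1, P2ry12, Tmem119, Csf1r, Trem2, Aif1, C1qa, C1qb and C1qc, chosen by symbol among the 43346 genes of 1 count table. All 9 had counts in every library and passed the filter on low counts, which left 18676 genes. The table covers 14 RNA libraries amplified by SMART-Seq v4, which makes full-length cDNA from few cells, each from 800 to 1000 live GFP-positive cells sorted from the hippocampus of wild-type C57BL/6 mice at day 14. The labels call the sorted cells abGCs, the adult-born granule cells of the dentate gyrus, so microglia were not the named target of the sort.

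Every group received CNO, clozapine-N-oxide. CAG-GFP Sham (n = 3) and CAG-GFP Pilo (n = 4) had GFP driven by CAG, a promoter that is not restricted to a cell type. DREADD Sham (n = 4) and DREADD Pilo (n = 3) had a DREADD, a designer receptor that CNO activates; the labels of DREADD Pilo call these cells silenced, and its 3 library names carry Hm4di. The Pilo groups had status epilepticus set off with pilocarpine at 300 mg/kg after scopolamine methyl nitrate and terbutaline, and ended with diazepam. What the Sham groups received in place of pilocarpine is not given in the sources used here, nor are the age of the mice and the vector for GFP or the receptor. Nothing in the labels says that the libraries of a group came from separate animals, so the p-values below measure only the spread between these libraries, which may be technical.

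Microglia depend on CSF1R, the receptor for the growth factors CSF1 and IL-34, for survival. CX3CR1 senses fractalkine, a ligand shed by neurons, and P2RY12 senses nucleotides released by damaged cells and steers microglial processes. TMEM119 is a surface protein used as a marker of resident microglia, TREM2 is a lipid-sensing receptor that signals through the adaptor TYROBP, and Aif1 encodes IBA1, an actin-binding protein widely used to stain microglia. The A, B and C chains made from C1qa, C1qb and C1qc assemble into C1q, which in brain comes mainly from microglia, starts the classical complement cascade and tags synapses for removal. Loss of P2ry12, Tmem119 and Cx3cr1 with gain of Trem2-dependent genes is the textbook pattern of microglia that leave their homeostatic state.

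In GENCODE M21 on GRCm38 the genes were Cx3cr1 (ENSMUSG00000052336.6; chr9:119901616-120069879, minus strand), P2ry12 (ENSMUSG00000036353.9; chr3:59216272-59262871, minus strand), Tmem119 (ENSMUSG00000054675.5; chr5:113793729-113800516, minus strand), Csf1r (ENSMUSG00000024621.11), Trem2 (ENSMUSG00000023992.10; chr17:48346401-48354147, plus strand) and Aif1 (ENSMUSG00000024397.10; chr17:35170991-35176068, minus strand). The C1q genes were C1qb (ENSMUSG00000036905.8; chr4:136880129-136886187, minus strand), C1qc (ENSMUSG00000036896.5; chr4:136889804-136893065, minus strand) and C1qa (ENSMUSG00000036887.5; chr4:136895917-136898803, minus strand), neighbours within 18675 bases. Csf1r shared 873 exonic bases with Hmgxb3 on the other strand, and the strand setting of the counting is not given in the sources used here, so reads there cannot be assigned by strand. Hmgxb3 itself stood at 0 to 29.0 CPM (counts scaled to a common library size by library total and TMM factor). Exonic overlap was 78 bases for Cx3cr1, 9 bases for P2ry12 and none for the rest.

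Promoters are shown because the transcription factor PU.1, the product of Spi1, binds purine-rich sites in many genes of macrophages and microglia. Most of these genes moved together across libraries, and the part of such sites in that was not tested. RefSeq promoter windows on GRCm38.p6 were at hand for 6 of the 9 genes (P2ry12, C1qb, C1qc, Cx3cr1, Aif1 and Trem2). The letters AGGAAGT, searched on both strands in the 250 bases before the start site, were found in 3 of the 6 (P2ry12, C1qb and C1qc) and in 7.69% of all 32851 windows. The longer form GAGGAAGT, which contains the shorter one, was found in C1qc alone and in 2.44% of all windows. These forms were chosen with the sequences in view, and a match describes letters, not a bound site. The sequences of the matching genes are given 5′ to 3′ along the gene's minus strand, with the match in capitals; in C1qb and C1qc it reads as the reverse complement ACTTCCT. C1qc is shown for the 99 bases of its 250-base window that lie upstream of its outermost start in GENCODE M21.
P2ry12, chr3:59262986-59263235: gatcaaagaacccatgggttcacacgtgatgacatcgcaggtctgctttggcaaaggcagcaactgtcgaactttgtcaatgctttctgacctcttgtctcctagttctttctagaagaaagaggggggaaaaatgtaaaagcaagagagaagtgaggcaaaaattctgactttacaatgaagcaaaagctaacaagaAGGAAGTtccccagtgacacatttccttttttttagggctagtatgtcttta
C1qb, chr4:136886201-136886450: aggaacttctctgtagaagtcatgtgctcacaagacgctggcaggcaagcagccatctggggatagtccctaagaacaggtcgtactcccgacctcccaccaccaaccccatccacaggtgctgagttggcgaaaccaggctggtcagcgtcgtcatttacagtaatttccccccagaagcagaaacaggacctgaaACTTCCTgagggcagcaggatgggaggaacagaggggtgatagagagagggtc
C1qc, chr4:136893066-136893164: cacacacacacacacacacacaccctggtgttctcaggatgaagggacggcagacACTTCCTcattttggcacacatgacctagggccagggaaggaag

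Total counts ran from 10613291 to 38614639 per library. The libraries fell into sets by the share of counts on annotated pseudogenes, 0.12% to 0.20% in 7 libraries (set 1: the 3 CAG-GFP Sham libraries with CAG-GFP Pilo 3 and 4 plus DREADD Sham 1 and 2) and 4.33% to 8.12% in 7 libraries (set 2: CAG-GFP Pilo 1 and 2, DREADD Sham 3 and 4, DREADD Pilo 1 to 3). All of CAG-GFP Sham lies in set 1 and all of DREADD Pilo in set 2, and the labels name no batch. Log2 CPM of the 3 CAG-GFP Sham libraries correlated at 0.863 to 0.868 (Pearson), against 0.501 to 0.796 for pairs within the other groups. The labels do not say whether these 3 libraries came from 1 sample, so a fit with them summed to 1 sample was also run. DREADD Pilo 3 stood apart, with 155354 CPM summed over 9 ependymal and choroid plexus markers against 8.17 to 13691 CPM in the other 13 libraries. Its share of counts on mitochondrial genes was 25.8%, against 2.06% to 13.9% in the other 13. CAG-GFP Pilo 4 had the most counts but the fewest genes detected, 9372 against 14512 to 20863 in the others. Of the genes that define the named cells, Prox1 was detected in 12 of 14 libraries and the immature-neuron gene Dcx in 11. All 10 granule-cell and all 10 immature-neuron markers were detected in at least 1 library, 5 and 2 of them in all 14. Dcx reached 6.56 CPM at most in CAG-GFP Sham and 271 CPM in DREADD Sham. The immature-neuron markers together summed to 213 to 285 CPM in CAG-GFP Sham and 424 to 1558 CPM in DREADD Sham. In DREADD Pilo they summed to 4.78 to 443 CPM.

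The microglial genes were read in all 14 libraries, at levels that differed between libraries by more than counting error. Levels are given as CPM for replicates 1, 2, 3 and 4 in that order. The CAG-GFP Sham libraries held 122, 113 and 125 CPM of Csf1r, the CAG-GFP Pilo libraries 557, 279, 143 and 186 CPM, the DREADD Sham libraries 399, 10.8, 173 and 401 CPM and the DREADD Pilo libraries 841, 539 and 14.9 CPM. The CAG-GFP Sham libraries of this growth-factor receptor lay within 113 to 125 CPM, whereas DREADD Pilo held both the highest library and one near the lowest of all. Cx3cr1 reached 12.3, 26.5 and 30.4 CPM (CAG-GFP Sham), 418, 409, 68.1 and 372 CPM (CAG-GFP Pilo), 105, 6.94, 369 and 599 CPM (DREADD Sham) and 682, 323 and 2.00 CPM (DREADD Pilo). CAG-GFP Sham was low throughout, all 4 CAG-GFP Pilo libraries lay above it, and both DREADD groups spanned it.

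P2ry12, the nucleotide receptor, had its 6 highest values in set 2. The CAG-GFP Sham libraries held 194, 212 and 103 CPM of P2ry12, the CAG-GFP Pilo libraries 1503, 746, 199.6 and 212 CPM, the DREADD Sham libraries 303, 89.4, 849 and 2913 CPM and the DREADD Pilo libraries 3118, 1303 and 8.57 CPM. Its highest values were in DREADD Pilo 1 and DREADD Sham 4, and its lowest in DREADD Pilo 3, where 77 counts were read. Tmem119 reached 26.7, 17.9 and 42.3 CPM (CAG-GFP Sham), 421, 233, 51.1 and 84.9 CPM (CAG-GFP Pilo), 171, 9.66, 231 and 709 CPM (DREADD Sham) and 1084, 297 and 0.223 CPM (DREADD Pilo). The value in DREADD Pilo 3 is 2 counts (95% exact Poisson interval 0.242 to 7.22 counts, for counting error only), and at this depth Tmem119 was barely measurable there.

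The CAG-GFP Sham libraries held 156, 99.8 and 158 CPM of Trem2, the CAG-GFP Pilo libraries 384, 365, 158 and 323 CPM, the DREADD Sham libraries 101, 30.6, 94.0 and 267 CPM and the DREADD Pilo libraries 748, 519 and 6.90 CPM. For this lipid-sensing receptor CAG-GFP Pilo lay above CAG-GFP Sham in all 4 libraries, the lowest of them by a small margin (157.8 against 157.6 CPM). Aif1 reached 196, 182 and 277 CPM (CAG-GFP Sham), 51.8, 62.3, 95.7 and 183 CPM (CAG-GFP Pilo), 117, 8.69, 17.7 and 18.3 CPM (DREADD Sham) and 113, 65.7 and 1.34 CPM (DREADD Pilo). Aif1 had another order. Its 4 highest values were the 3 CAG-GFP Sham libraries and CAG-GFP Pilo 4, and DREADD Sham 4, the library with the second highest P2ry12, had 18.3 CPM.

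The C1q chains were the most abundant of these genes per kilobase. The CAG-GFP Sham libraries held 332, 361 and 290.1 CPM of C1qa, the CAG-GFP Pilo libraries 1103, 1194, 523 and 843 CPM, the DREADD Sham libraries 533, 41.2, 548 and 1111 CPM and the DREADD Pilo libraries 3136, 1781 and 16.8 CPM. C1qb reached 993, 1003 and 1149 CPM (CAG-GFP Sham), 2929, 2795, 1264 and 2290.4 CPM (CAG-GFP Pilo), 1412, 157, 1256 and 2755 CPM (DREADD Sham) and 10178, 3716 and 67.3 CPM (DREADD Pilo). The CAG-GFP Sham libraries held 447, 489 and 511 CPM of C1qc, the CAG-GFP Pilo libraries 2369, 2369.5, 817 and 1228 CPM, the DREADD Sham libraries 826, 124, 1121 and 1986 CPM and the DREADD Pilo libraries 7609.8, 2969 and 35.4 CPM. All 3 chains kept 1 pattern: CAG-GFP Sham was tight, all CAG-GFP Pilo libraries were above it, DREADD Sham 2 and DREADD Pilo 3 were far below it, and DREADD Pilo 1 was the highest library of all. Per kilobase of the longest coding transcript, the median level over 14 libraries was 1230.0 CPM for C1qb, 809 for C1qc and 519 for C1qa, followed by Trem2 (145), P2ry12 (109.7), Aif1 (92.2), Tmem119 (57.1), Cx3cr1 (47.6) and Csf1r (38.1). Given the spread over libraries, neighbours below the C1q chains are not separated in this order. With all annotated exons as the length, Trem2 moved to place 8 of 9 and C1qb stayed at place 1.

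**Figure D1:**
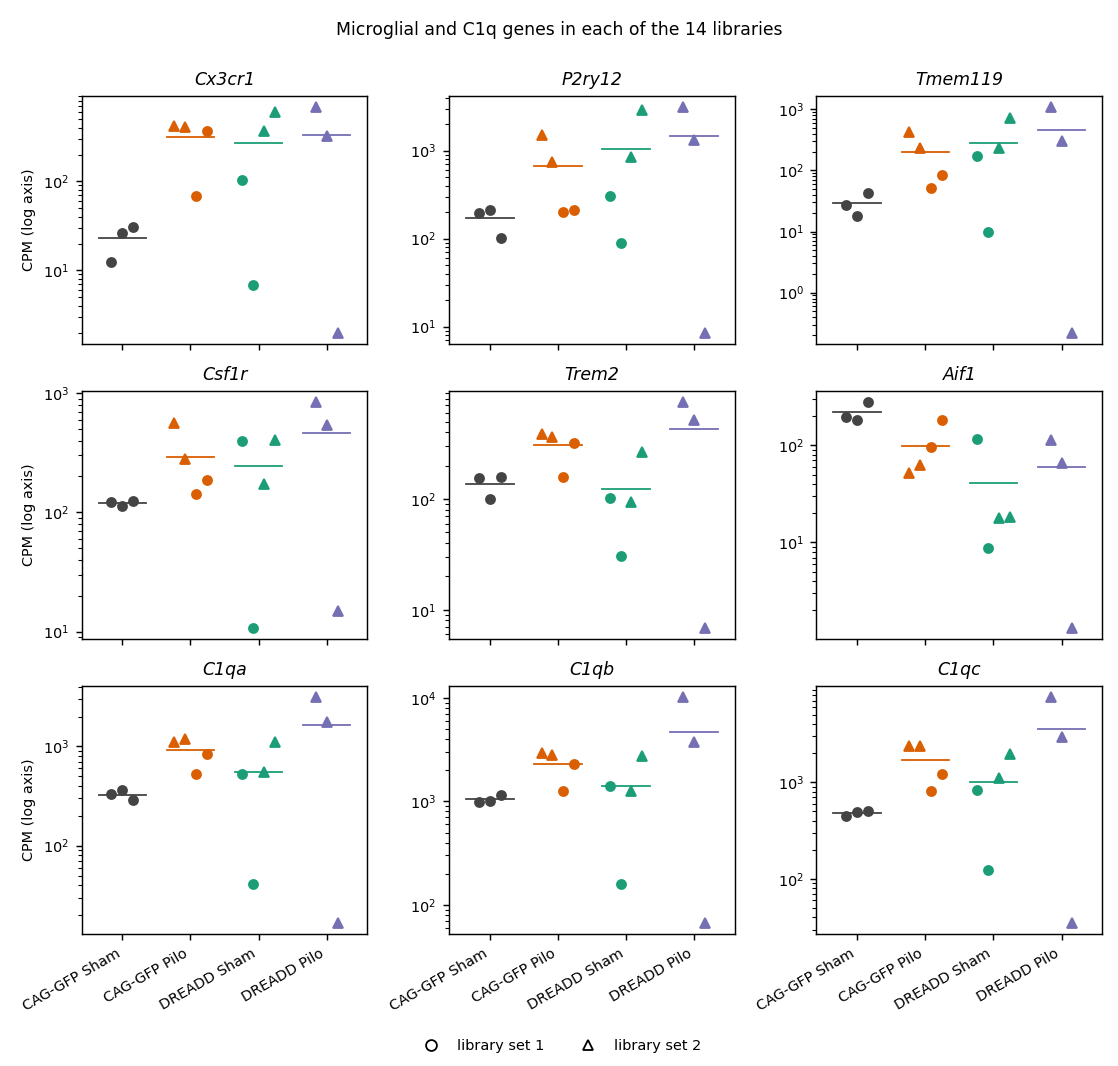
Level of each of the 9 genes in every library, in CPM on a log axis, with 1 panel per gene and 1 point per library; symbols mark the library set and horizontal bars the group means. CAG-GFP Sham lies close together in each panel, DREADD Pilo spans the widest range, and Aif1 is the panel in which CAG-GFP Sham is high.

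Summed over the 9 genes, the level ran from 153 CPM in DREADD Pilo 3 (0.0110% of its counts) and 479 CPM in DREADD Sham 2 to 27510.2 CPM in DREADD Pilo 1 (3.02% of its counts). CAG-GFP Sham stood at 2479.7 to 2685 CPM, and all 4 CAG-GFP Pilo libraries were above it at 3319 to 9736 CPM. Library set moved with this sum. Within CAG-GFP Pilo the set 1 libraries averaged 4520.0 CPM and the set 2 libraries 9094 CPM, and within DREADD Sham the averages were 2223 and 7709 CPM (n = 2 in each). The part of library set in the group differences is only partly separable from group, since CAG-GFP Sham and DREADD Pilo each lie in 1 set. Fits within 1 set, given below, hold the set fixed but rest on fewer libraries. In bulk libraries of sorted cells, fewer microglia and less of these RNAs per microglial cell cannot be told apart.

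Without the DREADD, the 4 libraries after seizures held more RNA of most of these genes than the 3 Sham libraries, but no gene passed the test. CAG-GFP Pilo was compared with CAG-GFP Sham by edgeR's quasi-likelihood test with Benjamini-Hochberg adjustment over all 18676 genes; 0 of the 9 genes were called, against 0.241% of all genes tested. Cx3cr1 averaged 23.1 ± 9.50 CPM (SD, n = 3) in the Sham group and 317 ± 167 CPM (SD, n = 4) after seizures. Its log2 difference was 3.78 ± 1.49 (SE), with an unadjusted 95% interval of 0.60 to 6.96 and an edgeR adjusted p of 0.288. DESeq2 called this gene, at 3.87 (log2) and an adjusted p of 0.0348, and called 2412 genes in all against 45 with edgeR.

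For the other identity genes the log2 differences were 2.77 ± 1.59 (SE) for Tmem119 (edgeR adjusted p = 0.393), 1.98 ± 1.35 (SE) for P2ry12 (0.483), 1.28 ± 1.08 (SE) for Csf1r (0.599) and 1.16 ± 0.99 (SE) for Trem2 (0.606). The C1q chains stood at 1.82 ± 1.12 (SE) for C1qc, 1.48 ± 1.11 (SE) for C1qa and 1.15 ± 1.05 (SE) for C1qb, with edgeR adjusted p of 0.427, 0.533 and 0.635. Aif1 was the only one of the 9 with a negative value, -1.15 ± 1.04 (SE) (edgeR adjusted p = 0.632). The median over the 9 was 1.48, beside 0.41 over all genes tested. All CAG-GFP Pilo libraries were above all CAG-GFP Sham libraries for 7 of the 9 genes (all but P2ry12 and Aif1), an order found for 6.55% of genes tested; 0 of the 9 were all below, beside 12.2%. The 7 genes share their libraries and are not separate evidence. Within set 1 (3 against 2 libraries) Cx3cr1 kept 3.27, Tmem119 stood at 1.22 and P2ry12 at 0.26, and the C1q chains at 0.75 to 1.07 (log2).

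With the DREADD, the libraries after seizures overlapped with their Sham group for every one of the genes (0 of 9 wholly above or below, beside 4.39% and 2.23% of genes tested). In DREADD Pilo against DREADD Sham edgeR called 0 of the 9 genes and 0% of all genes, with 967 genes at an unadjusted p under 0.05 and 180 called by DESeq2. The log2 differences were 1.80 ± 1.06 (SE) for C1qc, 1.78 ± 0.96 (SE) for Trem2, 1.74 ± 1.02 (SE) for C1qb and 1.56 ± 1.06 (SE) for C1qa. The other genes were nearer to 0, with 0.92 ± 1.04 (SE) for Csf1r, 0.72 for Tmem119, 0.57 for Aif1, 0.51 for P2ry12 and 0.32 for Cx3cr1. The edgeR adjusted p was 0.995 or above for each. The median over the 9 was 0.92, beside 0.067 over all genes. DREADD Pilo 3, the library rich in choroid plexus RNA, was below every DREADD Sham library for all genes but Csf1r. Without it the log2 differences were 2.29 for C1qb, 2.34 for Trem2, 1.07 for P2ry12 and 0.88 for Cx3cr1, and edgeR called 0 genes. Within set 2 the C1q chains and Trem2 stood at 0.98 to 1.23, while P2ry12 (-0.36) and Cx3cr1 (-0.54) turned negative.

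In mice without seizures, 3 of 4 DREADD libraries exceeded every CAG-GFP Sham library in Cx3cr1, P2ry12, Tmem119, Csf1r and each C1q chain. For Trem2 only 1 of 4 did so, and Aif1 was lower in all 4. The share of all genes with 3 of 4 libraries above was not counted. Of all genes tested, 61.1% had a positive log2 difference between these groups. This comparison shares its CAG-GFP Sham libraries with the first. Among the 9 genes, 0 were called by edgeR, against 0.3% of all genes. Cx3cr1 differed by 3.55 ± 1.47 (SE) on the log2 scale (edgeR adjusted p = 0.242), Tmem119 by 3.27 ± 1.63 (SE) (0.288) and P2ry12 by 2.62 ± 1.40 (SE) (0.318). DREADD Sham 2 lay below all CAG-GFP Sham libraries for each of these, so the groups overlapped. DESeq2 called Cx3cr1, at 3.73 and an adjusted p of 0.0381, and called 2932 genes in all against 56 with edgeR. The C1q chains stood nearer to 0, at 1.07 ± 1.08 (SE) for C1qc, 0.77 ± 1.08 (SE) for C1qa and 0.41 ± 1.03 (SE) for C1qb, as did Csf1r at 1.04 and Trem2 at -0.16.

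Aif1 averaged 219 ± 51.3 CPM (SD, n = 3) in CAG-GFP Sham and 40.4 ± 51.3 CPM (SD, n = 4) in DREADD Sham. The log2 difference was -2.43 ± 1.07 (SE), with an unadjusted 95% interval of -4.71 to -0.15 and an edgeR adjusted p of 0.255. All DREADD Sham libraries lay below all CAG-GFP Sham libraries, an order that 12.7% of genes tested also had. The reverse order was seen for 0 of the 9 genes, beside 9%. Within set 1 the difference was -1.83, and there Cx3cr1 stood at 1.24, P2ry12 at 0.19 and the C1q chains at -0.44 to -0.047. The median over the 9 genes was 1.04 with all libraries, beside 0.53 over all genes.

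After seizures, DREADD libraries did not separate from CAG-GFP libraries for any of the genes (0 of 9 wholly above or below, beside 5.69% and 3.15% of genes tested). DREADD Pilo against CAG-GFP Pilo gave log2 differences of 1.22 ± 1.43 (SE) for Tmem119, 1.15 ± 1.26 (SE) for P2ry12, 1.06 ± 1.05 (SE) for C1qc and 1.0043 ± 1.01 (SE) for C1qb, and smaller ones for C1qa (0.84), Csf1r (0.67), Trem2 (0.47), Cx3cr1 (0.085) and Aif1 (-0.71). No gene was called by edgeR (0% of all genes; 1001 at an unadjusted p under 0.05, and 231 called by DESeq2), and the edgeR adjusted p of the 9 was 0.983 or above. The unadjusted 95% interval of C1qb ran from -1.15 to 3.16. Without DREADD Pilo 1 the C1qb difference was -0.31, and without DREADD Pilo 3 it was 1.57, so its direction rested on DREADD Pilo 1.

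Whether the difference after seizures itself differed with the DREADD was tested as the interaction. The term was -3.46 ± 1.91 (SE) for Cx3cr1, -2.05 ± 2.08 (SE) for Tmem119, -1.47 ± 1.83 (SE) for P2ry12 and 1.73 ± 1.48 (SE) for Aif1, and between -0.36 and 0.63 for the other 5. The edgeR adjusted p was 0.468 or above for the 9 genes, and edgeR called 0% of all genes (2191 at an unadjusted p under 0.05, and 1569 called by DESeq2).

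**Figure D2:**
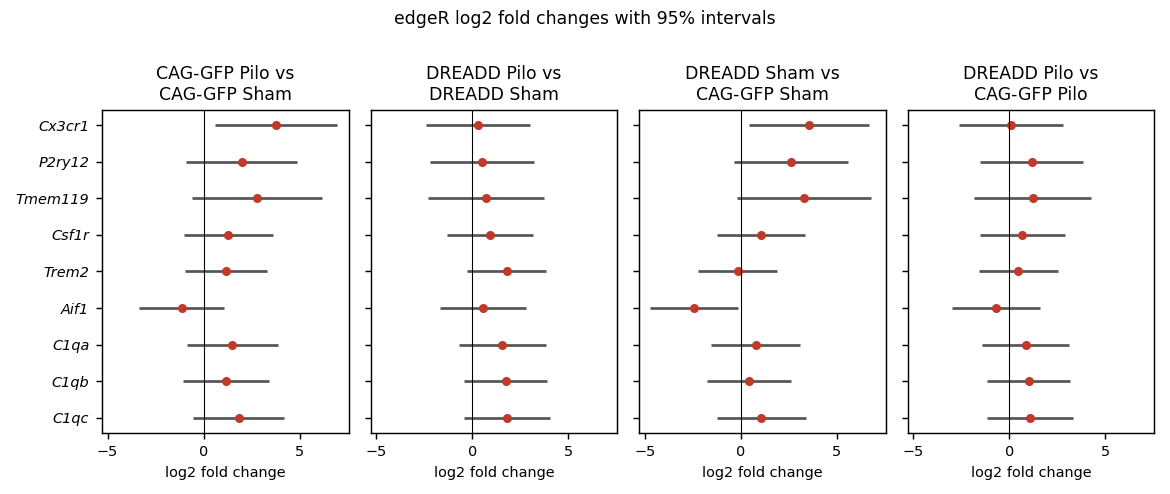
Log2 differences of the 9 genes in the 4 comparisons, as edgeR estimates with unadjusted 95% intervals; the vertical line at 0 marks no difference. Most intervals include 0; Cx3cr1 after seizures without the DREADD has the largest estimate, 3.78, and Aif1 lies on the other side of 0 from the other genes in the first comparison.

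Within a library, the C1q chains kept closer proportions to each other than the other genes did to C1qb. Per 100 counts of C1qb there were 25.0 to 47.9 counts of C1qa and 44.4 to 89.2 of C1qc across 14 libraries, a range of 1.92-fold and 2.01-fold, although C1qb itself ran from 67.3 to 10178 CPM. Trem2 per 100 C1qb counts ranged over 2.71-fold and Csf1r over 4.12-fold. C1qc per 100 C1qb counts was 45.1, 48.8 and 44.4 in CAG-GFP Sham, below every other library. P2ry12 ranged over 11.8-fold, from 8.93 in CAG-GFP Sham 3 to 106 in DREADD Sham 4. The widest ranges were those of Tmem119 (77.9-fold, its lowest value resting on the 2 counts in DREADD Pilo 3), Aif1 (36.2-fold) and Cx3cr1 (23.6-fold).

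Aif1 counts per 100 C1qb counts were 19.7, 18.2 and 24.1 (CAG-GFP Sham) and 1.77, 2.23, 7.57 and 7.97 (CAG-GFP Pilo). The values for DREADD Sham were 8.29, 5.52, 1.41 and 0.666, and those for DREADD Pilo were 1.11, 1.77 and 1.98. CAG-GFP Sham lay above every other library, and all other set 1 libraries (5.52 to 8.29) lay above all set 2 libraries (0.666 to 2.23). For Cx3cr1 the CAG-GFP Sham values were 1.24, 2.64 and 2.64 counts per 100 C1qb counts, below all 11 other libraries (2.98 to 29.4), and the sets overlapped among those: 4.41 to 16.2 in set 1 and 2.98 to 29.4 in set 2. Across 14 libraries that share the sets described above, Spearman's rho between pairs of the genes other than Aif1 was 0.727 to 0.982 (28 pairs, median 0.923). With Aif1 it was -0.0857 to 0.262 (8 pairs). Against the mean log2 CPM of the 9 genes, which contains it, Aif1 had a rho of 0.893 within set 2 and 0.143 within set 1 (7 libraries each). The part of library set in the Aif1 pattern was not tested.

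**Figure D3:**
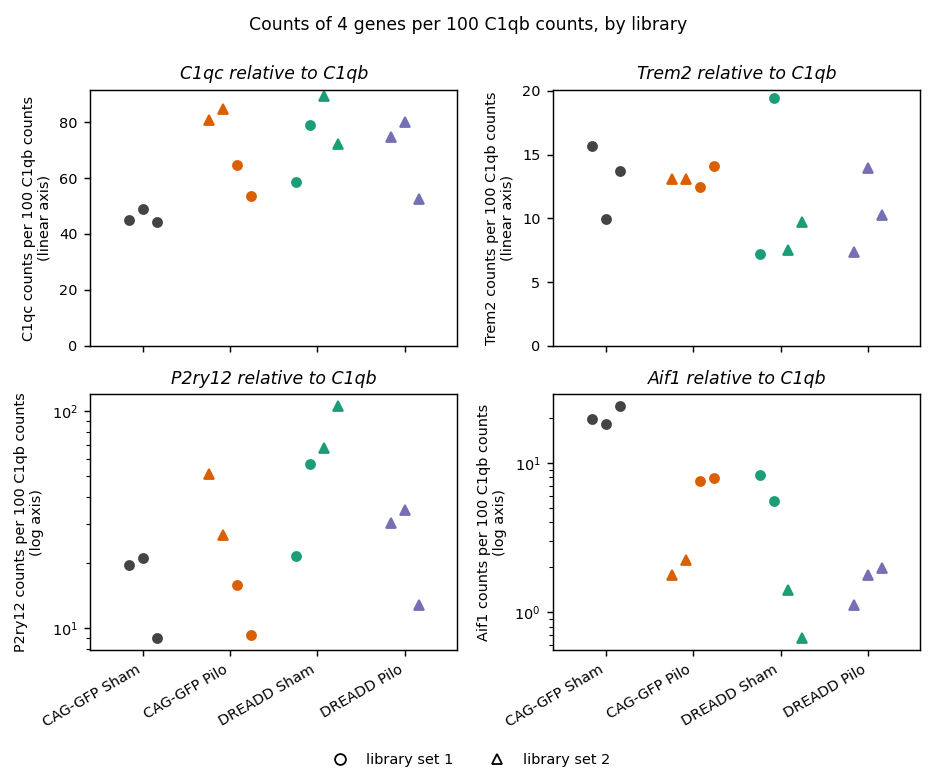
Counts of C1qc, Trem2, P2ry12 and Aif1 per 100 C1qb counts in each library, by group, with symbols for the library set; the upper limit and scale differ between panels and log axes are labelled. C1qc stays between 44.4 and 89.2 in all libraries, whereas Aif1 is highest in the 3 CAG-GFP Sham libraries.

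None of the other genes of resident microglia was called by edgeR. Of all genes tested, edgeR called 0.241% for seizures without the DREADD and 0% with it. For the DREADD the shares were 0.3% without seizures and 0% with them. A list without calls, here or below, lies near these shares. Of 16 further homeostatic genes, all tested, 11 of 16 had positive log2 differences after seizures without the DREADD (median 1.14), 15 of 16 with it (1.09), 10 of 16 for DREADD against CAG-GFP in Sham mice (1.03) and 14 of 16 after seizures (1.12). The medians over all genes were 0.41, 0.067, 0.53 and 0.28 in the same order, and 58.6%, 52.3%, 61.1% and 58.4% of all genes were positive, so the count in Sham mice lay near that of all genes. Among those with the highest mean CPM were Ctss, a lysosomal protease, and Gpr34, a lipid receptor. Gpr34 averaged 102 ± 7.61, 318 ± 243, 399 ± 495 and 1116 ± 1041 CPM (SD) in the order of the groups used above, in the pattern of P2ry12. Ctss stood at 1756 ± 134 CPM without and 1717 ± 882 CPM with seizures in the CAG-GFP groups, a log2 difference of -0.031, and did not share it. Of 20 general myeloid genes, 16 of 20 and 17 of 20 were positive after seizures without and with the DREADD (medians 0.70 and 1.50), and 11 of 20 and 16 of 20 for the DREADD without and with seizures (0.24 and 0.84), with Lyz2, encoding lysozyme, the Fc receptor Fcgr3 and Ly86 highest in mean CPM, and none was called.

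Complement genes beyond C1q were low or undetected in most libraries. Of 16 genes for the proteases and later components, 10 passed the filter, Cfd and C8b had no count in any library (C8b encodes a chain of the membrane attack complex), and none was called. C3, the component on which the pathways converge, was detected in 11 of 14 libraries and reached 49.3 CPM at most. C4b, the next substrate after C1q, stood at 184 ± 33.3 CPM (SD, n = 3) in CAG-GFP Sham against 9.60 ± 7.23 CPM (n = 4) in its Pilo group, 14.3 ± 17.7 CPM (n = 4) for DREADD Sham and 18.2 ± 23.9 CPM (n = 3) for DREADD Pilo, with edgeR adjusted p of 0.295 and 0.267 against CAG-GFP Sham. Masp2, a protease of the lectin pathway, stood at 1.34 to 30.0 CPM. The median log2 difference of the tested genes was 0.11 after seizures without the DREADD, below the 0.41 over all genes, and -0.78 with it, below 0.067. For the DREADD it was 1.03 without seizures (7 of 10 positive) and 0.61 with them (9 of 10 positive), above the 0.53 and 0.28 over all genes.

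Among 17 complement inhibitors, 14 were tested and Clu was the one gene that edgeR called; the list's medians were 0.71 and -0.34 for seizures without and with the DREADD, and 0.35 and 0.037 for the DREADD without and with seizures. Clu encodes clusterin, a secreted chaperone that blocks the membrane attack complex and is made mainly by astrocytes in brain. It averaged 17312 ± 748 CPM (SD, n = 3) in CAG-GFP Sham and fell to 731 ± 187 CPM (n = 4) after seizures, a log2 difference of -4.56 (edgeR adjusted p = 0.0358). In DREADD Sham it was 813 ± 618 CPM, -4.41 against CAG-GFP Sham (edgeR adjusted p = 0.0403). Both calls were lost when any 1 library of the comparison was left out (edgeR adjusted p = 0.0868 to 0.118 and 0.0809 to 0.155). With a replicate block the call in DREADD Sham was lost as well. Within set 1 alone, which keeps the same 3 CAG-GFP Sham libraries, both held (-4.75 and -3.75, edgeR adjusted p = 0.000796 and 0.00187). Of 10 complement receptors, 9 were tested and none was called; 7 of 9 were positive after seizures without the DREADD (median 1.04) and 8 of 9 with it (1.02), as were 6 of 9 and 9 of 9 for the DREADD without and with seizures (0.65 and 0.98). C3ar1, the C3a receptor, had the highest mean CPM, at 88.2 ± 8.99 CPM without and 181 ± 106 CPM with seizures in the CAG-GFP groups.

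Partners of the receptors did not follow one direction. Of 14 ligands and signalling partners, all tested and none called, 8 of 14 were positive after seizures without the DREADD (median 0.28) and 11 of 14 with it (0.68). The counts for the DREADD were 11 of 14 without seizures (0.33) and 10 of 14 with them (0.59). Tyrobp, the TREM2 adaptor, averaged 437 ± 58.1 CPM without seizures and 287 ± 62.3 CPM with them in the CAG-GFP groups, and 96.0 ± 82.0 and 426 ± 369.8 CPM in the DREADD groups (SD). Its log2 difference after seizures without the DREADD was -0.60, where that of Trem2 was 1.16; the difference between the genes was not tested. Apoe, a lipoprotein that binds TREM2, had the highest mean CPM of these, and Entpd1, the ectonucleotidase that sets ligand for P2RY12, stood at 8.79 to 227 CPM.

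Genes of disease-associated microglia, the state that depends on Trem2, had a median log2 difference of -0.073 after seizures without the DREADD (7 of 18 positive) and 1.14 with it (16 of 18 positive), beside 0.41 and 0.067 over all genes, and none was called. The DREADD medians were -0.18 without seizures (6 of 18 positive) and 1.02 with them (15 of 18 positive), beside 0.53 and 0.28. Bulk libraries do not show which cells these RNAs came from, and the part of other cell types in this list was not tested. Apoe, Fth1 and the protease gene Ctsd had the highest mean CPM of the 18, and Ctsd stood at 393 ± 42.7 CPM without and 1468 ± 512 CPM with seizures in the CAG-GFP groups (log2 1.90, edgeR adjusted p = 0.260). Among 12 cytokine and growth factor genes of microglia, edgeR called Il18 alone, in 1 comparison. Il18 encodes an inflammasome-processed cytokine and fell in DREADD Sham, to 69.0 ± 36.1 CPM from 677 ± 93.8 CPM in CAG-GFP Sham (log2 -3.29, edgeR adjusted p = 0.0451). This call too was lost when any 1 library of the comparison was left out (edgeR adjusted p = 0.0755 to 0.190). In CAG-GFP Pilo it stood at 97.4 ± 71.3 CPM (log2 -2.80, edgeR adjusted p = 0.0946). The chemokine genes Ccl4 and Ccl3 and the interleukin gene Il1a had the highest mean CPM of the list, with Ccl4 at 1364 to 1559 CPM without and 324 to 1622 CPM with seizures in the CAG-GFP groups.

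Markers of other macrophages were detected unevenly. Of 15 genes of border macrophages, monocytes and neutrophils, 9 were tested and none was called; S100a8 and S100a9 had no count in any library, and Mrc1 and Lyve1, which define border macrophages, were detected in 2 libraries each. Ccr2, the monocyte chemokine receptor, was detected in 5 of 14 libraries. Dab2, an endocytic adaptor, and Stab1, a scavenger receptor, were the highest of the 15 in mean CPM and had counts in 14 of 14 libraries, at 1.83 to 248 CPM for Dab2 and 6.19 to 37.8 CPM for Stab1. The summed level of the 15 was 21.6 to 36.0 CPM (CAG-GFP Sham), 31.2 to 224 CPM (CAG-GFP Pilo), 31.0 to 107 CPM (DREADD Sham) and 84.6 to 288 CPM (DREADD Pilo).

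Markers of several other cell types differed between the same libraries. The summed level of 12 astrocyte genes was 27769.9 to 29236 CPM (CAG-GFP Sham), 771 to 6435 CPM (CAG-GFP Pilo), 1941 to 4874 CPM (DREADD Sham) and 1583 to 3528 CPM (DREADD Pilo), so CAG-GFP Sham, the group with little Cx3cr1 and much Aif1 and Clu, held the most. The 10 genes of mature oligodendrocytes summed to 556 to 697 CPM (CAG-GFP Sham), 1287 to 37413 CPM (CAG-GFP Pilo), 18749 to 40053 CPM (DREADD Sham) and 408 to 42133 CPM (DREADD Pilo). The ependymal and choroid plexus sum was 2292 to 3022 CPM (CAG-GFP Sham) and 8.17 to 7522 CPM (CAG-GFP Pilo). It was 237 to 13691 CPM (DREADD Sham) and 35.7 to 155354 CPM (DREADD Pilo). DREADD Pilo 3 and DREADD Sham 2 had 155354 and 13585 CPM, with 153 and 479 CPM of the 9 genes. DREADD Sham 1 and CAG-GFP Pilo 3 had 13691 and 7522 CPM, with 3967 and 3319 CPM of the 9 genes. DREADD Pilo 1 and 2, highest in the 9 genes, had 833 and 35.7 CPM. Granule-cell genes summed to 131 to 1146 CPM and immature-neuron genes to 4.78 to 1558 CPM over all libraries. All 12 astrocyte and all 10 oligodendrocyte markers were detected in at least 1 library. The part of these cell types in the differences of the microglial genes was not tested.

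**Figure D4:**
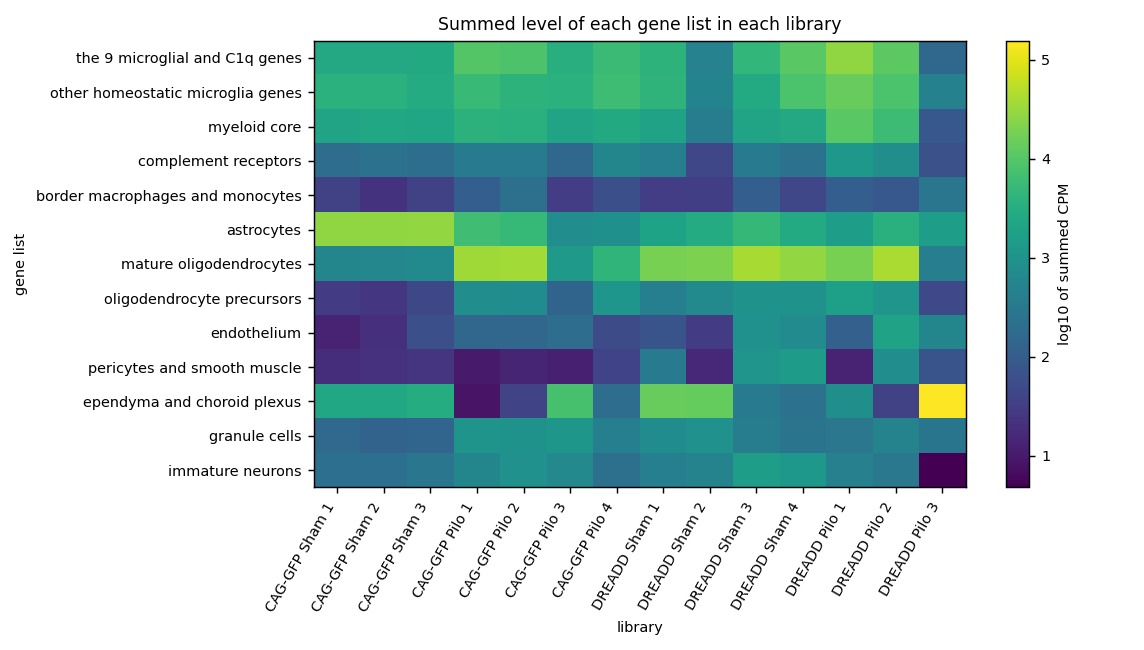
Summed CPM of the 9 microglial genes and of 12 other gene lists (rows) in every library (columns), with colour for the log10 of the sum. The microglial sum is lowest in DREADD Pilo 3, at 153 CPM, and the astrocyte sum is highest in the 3 CAG-GFP Sham libraries.

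The genes whose levels across the 14 libraries were most like the mean log2 CPM of the 9 genes were, by Spearman's rho, Gpr34 (0.978), Siglech and Serinc3 (0.969 each), Vsir and Laptm5 (0.952 each), Selplg (0.947), and Olfml3 and Lyn (0.934 each). Within set 1 and within set 2 (7 libraries each) Gpr34 had a rho of 0.893 and 0.964, and Olfml3 of 0.571 and 0.893. Of the 8, Gpr34, Siglech, Selplg and Olfml3 are on the homeostatic list and Laptm5 on the myeloid list, so 5 of 8 stood on the lists above. C1qc (0.987) and C1qb (0.982) were the most like the mean among the 9 genes, which include them, and Aif1 (0.00659) the least.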

How the data were processed

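The deposited table holds raw counts per gene, whole numbers with no normalisation, for 14 libraries. Per the submitters' processing notes the authors used R 4.1.1, edgeR, Bowtie2, Subread and featureCounts, and the build hg38; all 43346 identifiers in the table are mouse Ensembl identifiers, so that build does not match it. Neither the annotation release nor the strand setting is given in the sources used here. Identifiers were matched to GENCODE M21 without version (42462 matched, 884 not; 4 of the 9 genes have the same version there). Promoter windows came from RefSeq on GRCm38.p6.

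Libraries were grouped by title. Counts from 10613291 to 38614639 per library entered edgeR 4.0.16 under R 4.3.3 (TMM, filterByExpr, quasi-likelihood test, 1 fit of all groups, Benjamini-Hochberg adjustment, threshold 0.05) on 18676 genes; the common biological coefficient of variation was 1.47. DESeq2 1.42.0, other scaling, no filter, library set as a covariate or within sets, CAG-GFP Sham summed to 1 sample, a replicate block and leaving out each library were alternatives. Standard errors were derived from the F statistic. Since no molecular identifiers were used to count molecules, counting intervals cover counting error only. Scripts were tested on simulated data with a smaller spread than these libraries and no library sets. That test gives no error rates for these data. The 9 genes, the lists and the motifs were chosen with earlier results of these data known. Named were the 9 genes, list genes called or otherwise the 3 of highest mean CPM (1 of these is not reported here), and the 8 genes most like the mean of the 9; C3, C4b, Tyrobp and the genes defining other cells or with no count were named after their values were seen.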

Additional observations from a re-analysis of the deposited data

Results flagged for a closer look

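In each of the 20 sets of 4 libraries examined (the 9 genes and their sum in the 2 groups of 4), the highest and lowest library were compared with the rest. Chance alone flags about 1 in 20 groups of independent, normally distributed values; these sets share libraries and the sum contains the genes, so the rate for them is not known. Cx3cr1 stood at 68.1 CPM in CAG-GFP Pilo 3, far below the other 3 libraries of the group at 372 to 418 CPM, a gap of 0.869 of the group's range. Aif1 stood at 117 CPM in DREADD Sham 1, far above the other 3 libraries at 8.69 to 18.3 CPM, a gap of 0.911 of the range.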

How the results depend on the processing

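edgeR calls over all genes moved widely with the setting, and the cause was not tested. For seizures without the DREADD the count of 45 became 2412 with DESeq2, 89 with library set as a covariate, 471 within set 1, 0 with CAG-GFP Sham summed to 1 sample, and 3 to 15 without 1 library. For the DREADD in Sham mice, 56 became 2932, 146, 530, 0 and 6 to 12 in the same order. The counts of 0 became 180 with DESeq2 and 2 with the covariate for seizures with the DREADD, 231 with DESeq2 for the DREADD after seizures, and, for the interaction, 3 without the filter, 1569 with DESeq2, 11 with the covariate and 0 to 1 without 1 library, the last without DREADD Pilo 3.

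Replicate numbers were also used as a replicate block, which left 1 call for seizures without the DREADD and 0 for the DREADD in Sham mice, and 0 elsewhere. Deviations of same-numbered libraries correlated at -0.38 to 0.12 over 19 pairs, with 1 over 0.1. Those of different-numbered libraries correlated at -0.35 to 0.43 over 54 pairs, with 10 over 0.1. No sign of pairing by number was seen. With few libraries per group and library sets that split some groups, the check cannot exclude pairing.

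No sign turned for seizures without the DREADD under any setting run. For seizures with the DREADD the sign turned with the set covariate for Cx3cr1 (-0.078), P2ry12 (-0.16) and Tmem119 (-0.0021) and with set 2 alone for Cx3cr1 (-0.54), P2ry12 (-0.36) and Tmem119 (-0.039). For the DREADD in Sham mice the sign turned with the set covariate for C1qb (-0.24), with set 1 alone for C1qa (-0.22), C1qb (-0.44) and C1qc (-0.047) and with the replicate block for C1qb (-0.064). For the DREADD after seizures the sign turned with the set covariate for Cx3cr1 (-0.95), Trem2 (-0.036) and Aif1 (0.20) and with set 2 alone for Cx3cr1 (-0.29) and Aif1 (0.083). For the interaction the sign turned with RLE factors for C1qa (-0.046), with DESeq2 for C1qa (-0.046), with the set covariate for C1qc (0.34) and with the replicate block for C1qc (0.045).

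Leaving out 1 library turned the sign of these genes, given with their range of log2 differences: for seizures with the DREADD, Cx3cr1 -0.75 to 1.07, P2ry12 -0.68 to 1.84, Tmem119 -0.93 to 1.75 and Aif1 -0.31 to 2.01. For the DREADD in Sham mice, C1qb -0.15 to 0.79 and Trem2 -0.87 to 0.16. For the DREADD after seizures, Cx3cr1 -0.97 to 0.66, P2ry12 -0.022 to 1.94, Tmem119 -0.41 to 1.90, Csf1r -0.080 to 1.24, C1qa -0.039 to 1.41, C1qb -0.31 to 1.57, C1qc -0.18 to 1.63 and Trem2 -0.24 to 1.03. For the interaction, Csf1r -1.08 to 0.23, C1qa -0.77 to 0.68, C1qb -0.68 to 1.20, C1qc -1.22 to 0.60 and Trem2 -0.035 to 1.34.

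RLE and DESeq2 scaling moved the median of all genes by over 0.1 (log2) only for the DREADD after seizures (0.11). The mean summed level of CAG-GFP Sham was 2556 CPM, 1793 CPM by library total alone and 2435 CPM with RLE factors. Fits within set 1 or 2 exist only where the set holds both groups.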
